A study of Trachemys scripta elegans with 3 samples.

Results

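The insulin-like growth factor (IGF) and insulin signalling genes of the liver of the red-eared slider Trachemys scripta elegans were described at 3 salinities. Unigenes, the gene-level groups of a de novo assembly, were taken when the text of their best protein match named an insulin-like growth factor, its binding proteins or mRNA-binding proteins, the growth hormone receptor, an insulin receptor or its substrates, a forkhead box protein O, a PPAR gamma coactivator 1 or fibroblast growth factor 21 in a painted, green or softshell turtle, the slider itself or an alligator. This gave 41 unigenes with 26 gene names among the 205118 unigenes of the table, of which 31658 had such a turtle or alligator match. The choice used names only and no measured value, but it was made with earlier results of these data known. The turtles were 2 years old and were kept for 30 days in freshwater at 0 psu (practical salinity units) as the control, or in saltwater of 5 or 15 psu, and livers were taken after a fast of 24 h. The livers of 3 turtles of a salinity were mixed into 1 library, so there were 3 libraries from 9 turtles and no replicates. No value therefore has an error or a p-value, and an effect of salinity cannot be told apart from differences between the 3 sets of turtles.

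In vertebrates the pituitary growth hormone acts on its receptor in hepatocytes and drives the secretion of IGF1, while IGF2 is made by the liver and other tissues. In the blood IGFs are bound by IGF-binding proteins, which prolong their life and control how much free hormone reaches its receptor. Insulin acts through its receptor, the docking proteins IRS and the kinases PI3K and AKT, and AKT keeps the FOXO transcription factors out of the nucleus. When insulin is low, as in fasting, FOXO factors and the coactivator PGC-1alpha turn on glucose production in the mammalian liver, and FOXO1 turns on IGFBP1 there.

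Expression was given as FPKM, in which fragments are scaled to the length of the unigene and the size of the library. Levels of different unigenes can therefore be set side by side. Where a gene was split over several unigenes, a sum of their FPKM can count it more than once. Changes are log2 ratios of FPKM + 0.1, and a change is called past 2-fold where the ratio is at least 1 in size and the FPKM is at least 1 in either library. A fold change is given only where both libraries were above 0. Of the 41 unigenes, 39 reached FPKM of 1 in at least 1 library and 13 reached 10. In all 3 libraries 31 were above 0. The 2 unigenes below 1 throughout, c107069_g1 (IGFALS) and c14315_g1 (PPARGC1B), lay between 0 and 0.96.

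The libraries held the transcripts of hepatocytes, with all 9 hepatocyte markers found and summed FPKM of 24044 in freshwater, 14540 at 5 psu and 14190 at 15 psu. Without albumin these sums were 15397, 13010 and 11924. Some markers of other tissues differed between the libraries. Muscle markers summed to 41.67 in freshwater, 1.35 at 5 psu and 1.2 at 15 psu, stellate cell or fibroblast markers to 96.15, 77.42 and 54.53, and bile duct markers to 67.04, 71.77 and 23.22. EPCAM made up the largest part of the bile duct sum, with 43.12 in freshwater, 58.71 at 5 psu and 10.34 at 15 psu. KRT7 (8.57, 7.67 and 4.99) and SOX9 (4.24, 3.81 and 3.25) were also lowest at 15 psu. KRT19 (11.11, 1.58 and 4.64) was instead lowest at 5 psu. In mixed tissue, fewer cells of a type and less RNA per cell cannot be told apart. Among 25794 unigenes that reached FPKM of 1 in every library, the log2 ratio had a median of 0.08 for 5 psu over 0 psu, 0.02 for 15 psu over 0 psu and -0.05 for 15 psu over 5 psu, and the FPKM were used without rescaling.

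The most abundant transcripts of the group encoded binding proteins and the growth hormone receptor. IGFBP4, IGFBP1 and both unigenes of the growth hormone receptor stood above all other unigenes of the group in all 3 libraries. IGFBP1 was higher at both salinities than in freshwater and IGF1 was lower at both, while the insulin receptor was higher at 15 psu. The growth hormone receptor and the docking proteins named IRS1-like, IRS2 and IRS4 showed small differences. IRS1, summed over its unigenes, was lowest at 15 psu, but its highest unigene alone showed a small difference. Summed FPKM of the 8 unigenes of binding proteins was 143.8 in freshwater, 148.6 at 5 psu and 151.8 at 15 psu. For the 4 unigenes of receptors the sums were 97.82, 96.57 and 93.22, with both unigenes of the growth hormone receptor counted. The 3 hormones summed to 35.35, 28.42 and 27.45.

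IGF2, a growth factor related to insulin, was the most abundant hormone, with FPKM of 26.15 in freshwater, 16.68 at 5 psu and 22.53 at 15 psu (c119148_g3). It was lowest at 5 psu, where the log2 ratio to 0 psu was -0.65, and its level at 15 psu lay close to that of freshwater with a ratio of -0.21.

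IGF1, the growth factor whose secretion growth hormone drives, was a low transcript, with FPKM of 1.83 in freshwater, 0.88 at 5 psu and 0.73 at 15 psu (c725_g1). It was highest in freshwater, and the log2 ratios were -0.98 for 5 psu over 0 psu and -1.22 for 15 psu over 0 psu. The first of these lies just short of 2-fold and was past it after rescaling the libraries to a median ratio of 1 (-1.05). The second was short of it with a pseudocount of 1 (-0.71). Ratios of -0.98 or lower at 5 psu were found in 15.6% of matched unigenes of a like level. Ratios of -1.22 or lower at 15 psu were found in 16.1%. Such shares, here and below, also count unigenes listed at 0 in either library, whose ratios rest on the pseudocount. Shares without these unigenes were not computed. The saline libraries differed little from each other, with an IGF1 ratio of -0.24 for 15 psu over 5 psu. Within each library, where no scaling between libraries enters, IGF2 over IGF1 was 14.3 in freshwater, 19 at 5 psu and 30.9 at 15 psu.

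FGF21, a liver hormone of fasting in mammals, was highest at 5 psu and lowest at 15 psu. Its FPKM were 7.37 in freshwater, 10.86 at 5 psu and 4.19 at 15 psu (c112893_g1). Against freshwater the log2 ratios had opposite signs, 0.55 at 5 psu and -0.80 at 15 psu, and the ratio of 15 psu over 5 psu was -1.35. Among the 6145 turtle- or alligator-matched unigenes of FPKM 10 or more in the higher library, 7.62% were lower at 15 psu than at 5 psu by at least as much. Beta-actin was itself higher at 15 psu, so scaling to it lowered the ratios of 15 psu over 0 psu for all unigenes. On that scale FGF21 at 15 psu also passed 2-fold against 0 psu (-1.02).

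**Figure D1:**
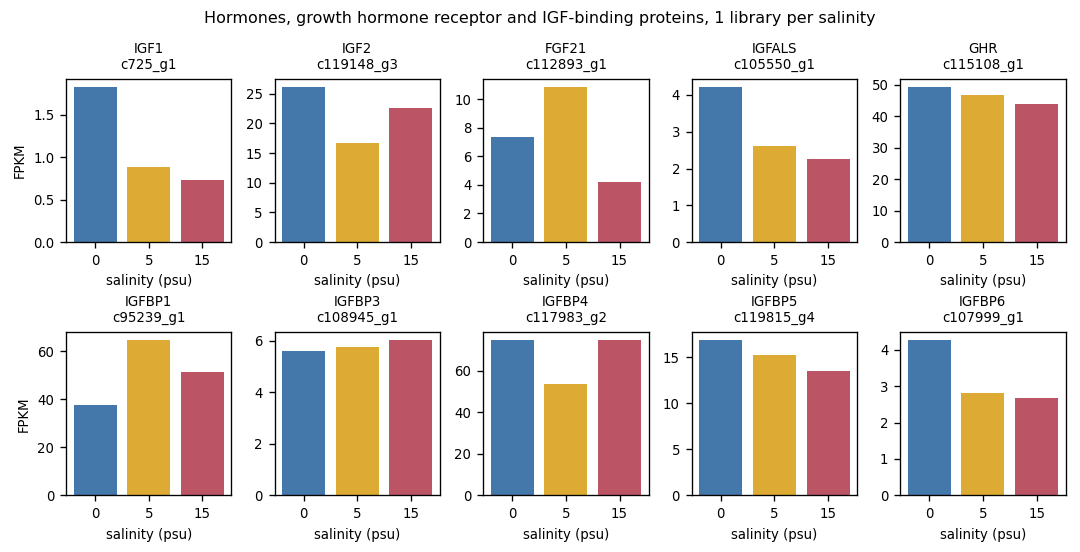
FPKM on the vertical axis (each panel with its own scale from 0) at 0, 5 and 15 psu for the hormones, the growth hormone receptor and the IGF-binding proteins, 1 bar per library and without error bars because there was 1 library per salinity. For IGFALS and GHR the unigene with the higher FPKM is drawn. IGF1 and IGFALS stand highest in freshwater, IGFBP1 and FGF21 at 5 psu, and IGFBP4 has nearly equal bars at 0 and 15 psu.

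Among the binding proteins that the rule took, IGFBP1 and IGFBP4 had the highest FPKM in all 3 libraries. IGFBP1, made mainly by the liver and repressed by insulin in mammals, had FPKM of 37.45 in freshwater, 64.55 at 5 psu and 51.35 at 15 psu (c95239_g1). Both saline libraries were above freshwater, with log2 ratios of 0.78 at 5 psu and 0.45 at 15 psu, short of 2-fold. Changes upward of at least this size were found in 8.98% of matched unigenes of a like level for 5 psu over 0 psu and in 16.6% for 15 psu over 0 psu. With values taken relative to beta-actin, the IGFBP1 ratio of 15 psu over 0 psu was 0.23.

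IGFBP4, which holds IGFs away from their receptor, had FPKM of 74.77 in freshwater, 53.43 at 5 psu and 74.75 at 15 psu (c117983_g2). It was lower at 5 psu alone, with a log2 ratio of -0.48 to 0 psu, and equal in the freshwater and 15 psu libraries. The order of IGFBP1 and IGFBP4 was therefore turned at 5 psu. IGFBP1 over IGFBP4 was 0.501 in freshwater, 1.21 at 5 psu and 0.687 at 15 psu. As shares of the summed FPKM of the 5 unigenes IGFBP1, IGFBP3, IGFBP4, IGFBP5 and IGFBP6, IGFBP1 took 26.9% in freshwater, 45.5% at 5 psu and 34.6% at 15 psu. IGFBP4 took 53.8%, 37.7% and 50.4%. The summed FPKM of these 5 was 139 in freshwater, 141.8 at 5 psu and 148.4 at 15 psu.

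Set against the hormone they bind, IGFBP1 over IGF2 was 1.43 in freshwater, 3.87 at 5 psu and 2.28 at 15 psu. IGFBP4 over IGF2 was 2.86, 3.2 and 3.32 in the same order. At 5 psu the IGFBP1 transcript was thus furthest above that of IGF2, with the binding protein at its highest and the hormone at its lowest.

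IGFBP3, the main IGF carrier of mammalian blood, showed the smallest spread of the binding proteins. Its FPKM were 5.59 in freshwater, 5.75 at 5 psu and 6.03 at 15 psu (c108945_g1), with log2 ratios to 0 psu of 0.04 and 0.11 whose sign turned under other scalings. IGFBP3 follows IGFBP1 directly in the RefSeq gene order of this species (assembly CAS_Tse_1.0). In contrast to its neighbour it had a nearly constant share of the 5 binding proteins, from 4.02% to 4.06%.

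IGFALS, the acid labile subunit that joins IGF and IGFBP3 in a large complex, was highest in freshwater. Its FPKM were 4.22 in freshwater, 2.6 at 5 psu and 2.27 at 15 psu (c105550_g1), with log2 ratios to 0 psu of -0.68 and -0.87. The second reached -1.08 relative to beta-actin, which was itself higher at 15 psu. The order of its libraries was that of IGF1, with freshwater first and 15 psu last, as also in IGFBP5 and IGFBP6. The other IGFALS unigene, c107069_g1, had 0.64, 0.96 and 0.33 and was highest at 5 psu. With both summed, the log2 ratios to 0 psu were -0.44 and -0.88.

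IGFBP5, which also binds extracellular matrix, had FPKM of 16.89 in freshwater, 15.28 at 5 psu and 13.56 at 15 psu (c119815_g4). IGFBP6, which prefers IGF2, had 4.27, 2.82 and 2.69 (c107999_g1). Both were highest in freshwater, with log2 ratios of 15 psu over 0 psu of -0.31 and -0.65. The markers of stellate cells or fibroblasts, cells that also make these proteins in mammals, had the same order of libraries in their sum. Of the 6 listed markers 4 were found, none at 0 in any library. COL1A2 (34.77, 19.2 and 16.23) and COL3A1 (11.19, 8.76 and 5.74) followed that order, while DCN (43.18, 43.32 and 25.4) was lower at 15 psu alone and PDGFRB (7.01, 6.14 and 7.16) was not lower there. Their part in the result was not tested. The Swissprot match of c107999_g1 names a human IGFBP5, so its name is uncertain. IGFBPL1, an IGFBP-like protein, had 0 in freshwater, 3.19 at 5 psu and 0.83 at 15 psu (c80267_g1).

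IGFBP2, the neighbour of IGFBP5 in the RefSeq gene order, fell outside the rule because its best match was a bird protein, and it was looked up after the values were seen. Its FPKM were 76.52 in freshwater, 54.55 at 5 psu and 76.71 at 15 psu (c119475_g2). Level and pattern lay close to those of IGFBP4, with log2 ratios to 0 psu of -0.49 and 0.00. With IGFBP2 counted in, the share of IGFBP1 was 17.4% in freshwater, 32.9% at 5 psu and 22.8% at 15 psu, again highest at 5 psu. The summed FPKM was then 215.5, 196.4 and 225.1, lowest at 5 psu, unlike the sum without IGFBP2. IGFBP7, a more distant relative matched to chicken, had 31.91, 27.83 and 26.43 (c98990_g1).

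**Figure D2:**
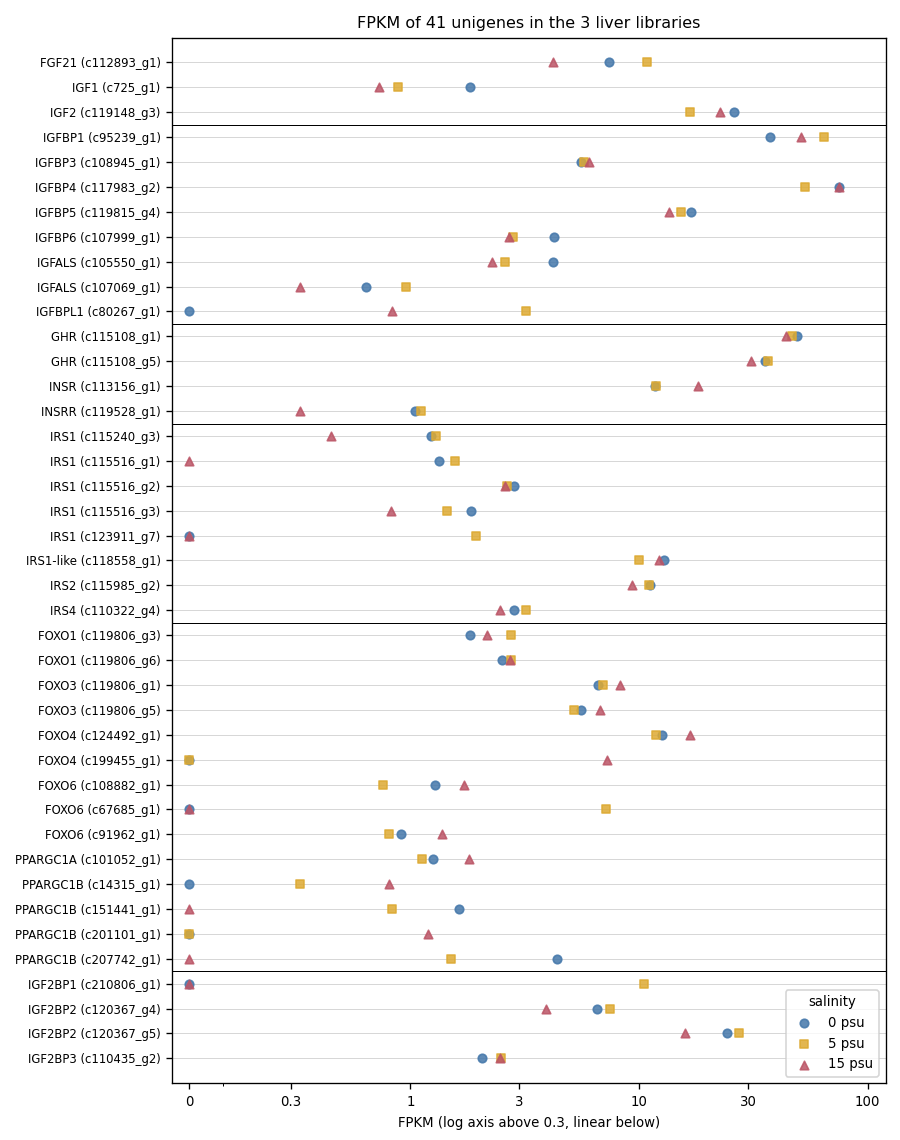
FPKM of all 41 unigenes on a log axis (linear below 0.3), 1 row per unigene with circles for 0 psu, squares for 5 psu and triangles for 15 psu. Horizontal lines part hormones, binding proteins, receptors, docking proteins, transcription regulators and RNA-binding proteins. The points of most rows above FPKM 3 lie close together, and points at the left edge are unigenes listed at 0.

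Among the receptors, the growth hormone receptor GHR stood far above the insulin receptor. Its unigenes had FPKM of 49.3 in freshwater, 46.86 at 5 psu and 43.9 at 15 psu (c115108_g1) and of 35.7, 36.7 and 30.91 (c115108_g5). The 4 log2 ratios to 0 psu lay between -0.21 and 0.04. Both unigenes were lowest at 15 psu and matched the same turtle protein, and their changes differed by 0.11 for 5 psu over 0 psu and by 0.04 for 15 psu over 0 psu.

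The insulin receptor INSR had FPKM of 11.77 in freshwater, 11.9 at 5 psu and 18.08 at 15 psu (c113156_g1). It was alike at 0 and 5 psu and higher at 15 psu, with log2 ratios to 0 psu of 0.02 and 0.62. Of the matched unigenes of a like level, 12.3% were higher at 15 psu by at least as much. Taken relative to beta-actin, the INSR ratio of 15 psu over 0 psu was smaller, at 0.40. GHR over INSR, with the more abundant GHR unigene, was 4.19 in freshwater, 3.94 at 5 psu and 2.43 at 15 psu.

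INSRR, a relative of the insulin receptor that senses alkaline pH in mammals, had FPKM of 1.05 in freshwater, 1.11 at 5 psu and 0.33 at 15 psu (c119528_g1). The value at 15 psu was past 2-fold below 0 psu (-1.42) and below 5 psu (-1.49), but with a pseudocount of 1 these ratios were -0.62 and -0.67. The paper also measured INSRR by quantitative PCR. There the level was significantly higher at 5 psu and significantly lower at 15 psu than in the control. The FPKM differed from this at 5 psu, where the log2 ratio to 0 psu was 0.07. No unigene of the group carried the name of the IGF1 receptor, which was not analysed here.

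The docking proteins pass the signal of both receptors on to PI3K. The unigenes named IRS1-like, IRS2 and IRS4 differed little between libraries. The unigene named IRS1-like had FPKM of 12.84 in freshwater, 10.05 at 5 psu and 12.27 at 15 psu (c118558_g1). IRS2, with IRS1 the main docking protein of the mammalian liver, had 11.21, 11.02 and 9.31 (c115985_g2). The unigene matched to IRS4 had 2.84, 3.19 and 2.46 (c110322_g4), although its Swissprot match names IRS2. The log2 ratios of these unigenes to 0 psu lay between -0.35 and 0.16.

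IRS1 was spread over 5 unigenes of FPKM below 3. The highest, c115516_g2, had 2.85 in freshwater, 2.65 at 5 psu and 2.59 at 15 psu. In the same assembly component, c115516_g3 had 1.85, 1.44 and 0.82 and c115516_g1 had 1.33, 1.57 and 0. All of these were lowest at 15 psu, and c115516_g3 was past 2-fold below freshwater there (-1.08), a ratio of -0.65 with a pseudocount of 1. Another unigene of the component, c115516_g4, which matched a bird protein and lay outside the rule, was highest at 15 psu, with 1.25, 1.32 and 1.47. The remaining IRS1 unigenes of the group, c115240_g3 (1.23, 1.3 and 0.45) and c123911_g7 (0, 1.93 and 0), had no Swissprot match, so that their name is uncertain. Summed over the 5 unigenes, IRS1 was 7.26 in freshwater, 8.89 at 5 psu and 3.86 at 15 psu. The log2 ratios of the sum were -0.89 for 15 psu over 0 psu and -1.18 for 15 psu over 5 psu. This sum holds the unigenes of uncertain name, c115240_g3 and c123911_g7, and leaves out c115516_g4. The highest unigene alone, c115516_g2, had ratios of -0.13 and -0.03 in the same comparisons.

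**Figure D3:**
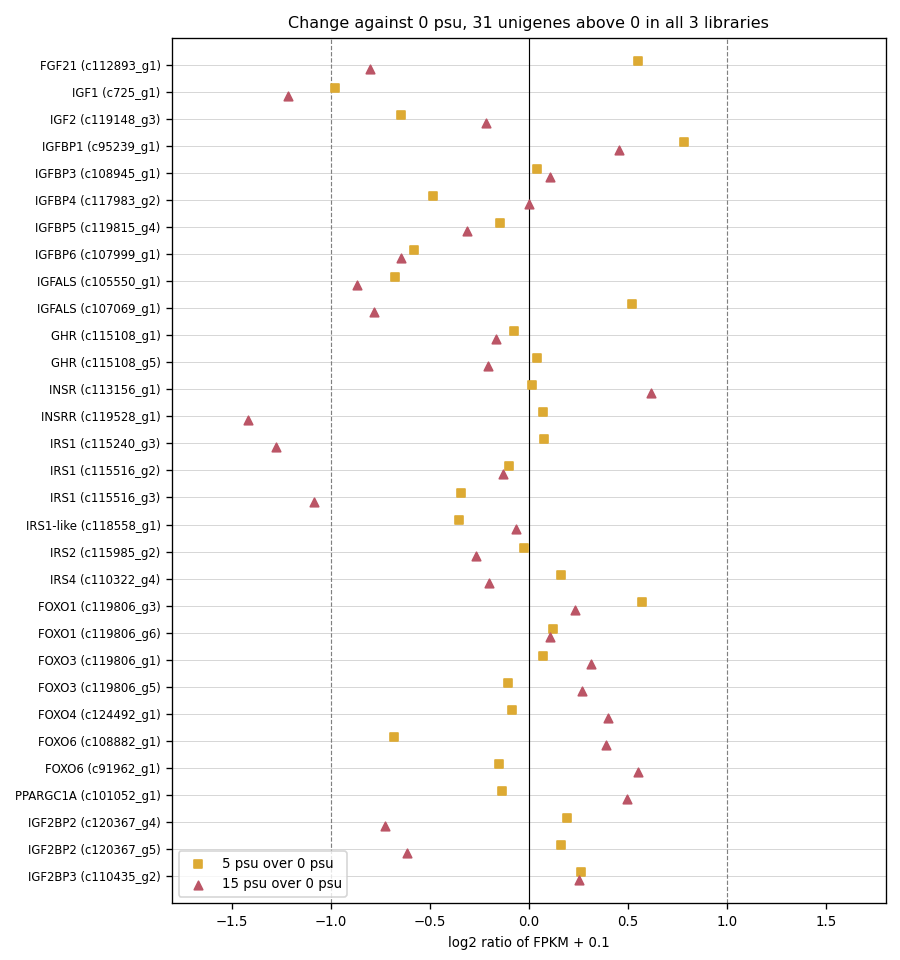
Log2 ratios of FPKM + 0.1 for 5 psu over 0 psu (squares) and 15 psu over 0 psu (triangles) in the 31 unigenes above 0 in all 3 libraries, with dashed lines at 2-fold. Both comparisons share the 0 psu library. No point lies beyond 2-fold to the right, and IGF1, INSRR and 2 IRS1 unigenes lie beyond it to the left at 15 psu.

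FOXO transcription factors, which AKT inactivates, were expressed at low to moderate levels. FOXO4 was the highest, with FPKM of 12.58 in freshwater, 11.87 at 5 psu and 16.65 at 15 psu (c124492_g1). FOXO3 had 6.6, 6.95 and 8.23 (c119806_g1) and 5.58, 5.18 and 6.74 (c119806_g5). These 3 unigenes were highest at 15 psu, with log2 ratios to 0 psu from 0.27 to 0.40. Relative to beta-actin the ratios were 0.18 for FOXO4 and 0.10 and 0.05 for the FOXO3 unigenes.

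FOXO1, the form best known for the control of liver glucose output, had FPKM of 1.83 in freshwater, 2.77 at 5 psu and 2.17 at 15 psu (c119806_g3) and of 2.52, 2.75 and 2.72 (c119806_g6). Both were highest at 5 psu, by little in the second, with log2 ratios to 0 psu of 0.57 and 0.12. The unigenes of FOXO1 and FOXO3 belong to 1 assembly component, so reads may have been divided between them, and their values are uncertain to that extent.

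FOXO6 had FPKM of 1.28 in freshwater, 0.76 at 5 psu and 1.71 at 15 psu (c108882_g1) and of 0.91, 0.81 and 1.38 (c91962_g1). Both were lowest at 5 psu, and the ratio of 15 psu over 5 psu was 1.07 in the first and 0.70 in the second. Another unigene matched to FOXO6 was seen at 5 psu alone, with 7.17 (c67685_g1). A second unigene matched to FOXO4, without Swissprot match, was seen at 15 psu alone, with 7.22 (c199455_g1).

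The coactivators of the PGC-1 family raise mitochondrial and gluconeogenic genes in mammals. PPARGC1A, which encodes PGC-1alpha, had FPKM of 1.25 in freshwater, 1.13 at 5 psu and 1.8 at 15 psu (c101052_g1). It was highest at 15 psu, with a log2 ratio to 0 psu of 0.49, or 0.29 relative to beta-actin. PPARGC1B, which encodes PGC-1beta, was split into 4 unigenes, and its highest had 4.38 in freshwater, 1.5 at 5 psu and 0 at 15 psu (c207742_g1).

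Of the other PPARGC1B unigenes, c151441_g1 had 1.63, 0.83 and 0, while c201101_g1 had 0, 0 and 1.2. Pieces of the gene were thus listed at 0 in different libraries. Their sum with c14315_g1 was 6.01 in freshwater, 2.66 at 5 psu and 2.01 at 15 psu, with log2 ratios to 0 psu of -1.15 and -1.53. In mammals this coactivator is abundant in the heart, and the muscle markers were highest in the same library: of 7 listed genes 3 were found, MYH6 had 35.4 in freshwater, 1.35 at 5 psu and 1.2 at 15 psu, MYL7 had 6.27, 0 and 0, and MYH7 was at 0 in all 3. Their part in the result was not tested.

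The IGF2 mRNA-binding proteins bind IGF2 and other messengers in the cytoplasm. IGF2BP2 was the main one, with FPKM of 24.38 in freshwater, 27.28 at 5 psu and 15.89 at 15 psu (c120367_g5) and of 6.53, 7.48 and 3.91 (c120367_g4). Both unigenes were lowest at 15 psu. The log2 ratios of 15 psu over 0 psu were -0.61 and -0.73, and those of 15 psu over 5 psu were -0.78 and -0.92.

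IGF2BP3 had FPKM of 2.06 in freshwater, 2.49 at 5 psu and 2.47 at 15 psu (c110435_g2), lowest in freshwater. Both IGF2BP3 unigenes matched to bird proteins, outside the rule, were instead highest there, with 3.54, 2.69 and 2.25 (c110435_g3) and 1.83, 1.37 and 1.19 (c96246_g1). IGF2BP1, a form of embryonic tissue in mammals, was seen at 5 psu alone, with 10.48 (c210806_g1). IGF2BP1 was the only unigene of the group that reached FPKM of 10 in 1 library and was listed at 0 in another.

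The counts past 2-fold were small beside those of the whole table. For 5 psu over 0 psu, 36 unigenes of the group passed the filter, of which 4 were 2-fold or more higher and 1 was lower. The background was 37.7% higher and 27.8% lower over all 103475 unigenes tested, and 16% higher and 13.9% lower over those matched to turtles or alligators. In the group these shares were 11.1% and 2.78%. All 4 higher unigenes (IGFBPL1, IRS1 c123911_g7, FOXO6 c67685_g1 and IGF2BP1) were listed at 0 in freshwater, so their ratios rest on the pseudocount, and the lower one was PPARGC1B c207742_g1. By the paper's totals the 5 psu library also had the most clean reads, and the part of this depth was not tested.

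For 15 psu over 0 psu, 35 passed, with 2 higher (5.71%) and 7 lower (20%). Background shares were 30.7% and 33.3% over all unigenes and 13.6% and 16% over the matched ones. The higher ones, FOXO4 c199455_g1 and PPARGC1B c201101_g1, were listed at 0 in freshwater. The lower ones were IGF1, INSRR, IRS1 c115240_g3 and c115516_g3, and 3 unigenes listed at 0 at 15 psu, namely IRS1 c115516_g1 and PPARGC1B c151441_g1 and c207742_g1. Leaving out unigenes at 0 in either library, 0 of 30 were 2-fold higher and 4 were lower. No background share was computed with such unigenes left out, so these counts have none to be set against.

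For 15 psu over 5 psu, 37 passed, with 3 higher (8.11%) and 9 lower (24.3%), against 26.6% and 38.9% over all unigenes and 13% and 17.5% over the matched ones. Above 0 in both libraries were 30 of them, of which 1 was higher, FOXO6 c108882_g1, and 4 were lower, FGF21, IGFBPL1, INSRR and IRS1 c115240_g3. The FOXO6 ratio was short of 2-fold with a pseudocount of 1 (0.62) and relative to beta-actin (0.90), and -1.47 with the FOXO6 unigenes summed. The median log2 ratio of the group was 0.03 for 5 psu over 0 psu, -0.17 for 15 psu over 0 psu and -0.17 for 15 psu over 5 psu. Over the matched unigenes it was 0.0789, 0.0119 and -0.0601, and over all unigenes 0.225, -0.0382 and -0.259. Counting every unigene, the share of the group that was 2-fold higher lay below both backgrounds in all 3 comparisons. The share that was lower lay above that of the matched unigenes in both comparisons of the 15 psu library. These differences were not tested, and several of the lower unigenes were pieces of IRS1 and PPARGC1B. With the highest unigene per gene, 3 of 23 were lower for 15 psu over 0 psu and 6 of 25 for 15 psu over 5 psu. With FPKM of at least 5 the counts were 0 of 17 and 3 of 19. The background shares hold for every unigene at FPKM of 1 or more, and none was computed for these narrower sets or for unigenes above 0 in both libraries.

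**Figure D4:**
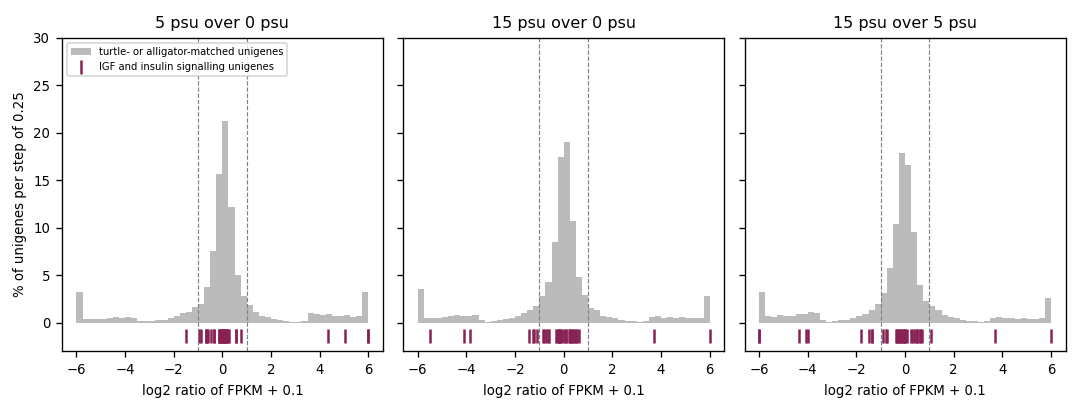
Share of turtle- or alligator-matched unigenes (vertical axis, percent per step of 0.25) by log2 ratio of FPKM + 0.1 in the 3 comparisons, with ticks below 0 for the unigenes of the IGF and insulin group and dashed lines at 2-fold. Values beyond 6 are drawn at 6. Most ticks lie within the central peak, and the outlying ones are mainly unigenes listed at 0 in 1 library.

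A rough scale for such ratios is given by pairs of unigenes that matched the same protein. Among 201 pairs whose lower FPKM was at least 5, the log2 ratios of both unigenes differed by a median of 0.214 for 5 psu over 0 psu and 0.189 for 15 psu over 0 psu, and 90% of pairs lay within 0.791 and 0.982. Among 662 pairs between FPKM of 1 and 5 the medians were 0.39 and 0.385, with 90% within 1.31 and 1.33. This spread holds assembly and counting but no variation between turtles. Of the members discussed, the ratios of IGFBP1 at 5 psu, INSR at 15 psu and IGF2 at 5 psu were above the medians and below the upper ends of the first set of pairs. FGF21, with a lowest FPKM of 4.19, had a ratio of -1.35 for 15 psu over 5 psu. In that comparison 90% of the pairs between FPKM of 1 and 5 lay within 1.4, a range that holds the FGF21 ratio. IGF1, below FPKM of 1 in the saline libraries, belonged to neither set. Listing at 0 was also usual at low levels: 8 of 26 unigenes of the group with FPKM of 1 to 10 in the highest library were at 0 in at least 1 other (30.8%), beside 30.1% of matched unigenes of that level. At 10 or more it was 1 of 13 (7.69%), beside 15.8%.

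Other genes of the pathway were taken from a list of 54 names, of which 46 were found with 62 unigenes. Counting every unigene, 3 were 2-fold or more higher and 3 lower among 57 for 5 psu over 0 psu, 3 and 3 among 54 for 15 psu over 0 psu, and 3 and 6 among 57 for 15 psu over 5 psu. With the unigene of highest mean FPKM for each gene, these counts were 0 and 1, 2 and 1, and 3 and 3, each among 45. The medians for every unigene were 0.08, 0.05 and 0.01. The background shares given above, over the matched unigenes, were 16% higher and 13.9% lower, 13.6% and 16%, and 13% and 17.5% in these comparisons, and the difference of the list from them was not tested. The levels are drawn in the plot of the pathway genes.

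EIF4EBP1, a brake on translation that mTOR releases, was the most abundant of the list, with FPKM of 58.49 in freshwater, 65.1 at 5 psu and 72.31 at 15 psu. AKT2, the main AKT of insulin action, had 28.8, 29.26 and 29.37, and GSK3A, a kinase that AKT inhibits, had 24.45, 23.8 and 23.82. These kinases were level across the libraries. The adaptor SHC1 had 40.26, 38.93 and 47.95, DDIT4, an inhibitor of mTOR, had 20.4, 20.58 and 23.87, and the FGF receptor FGFR3 had 16.35, 15.57 and 19.1. The glucagon receptor GCGR, whose ligand opposes insulin in the liver, had 28.72, 34.01 and 46.12, highest at 15 psu with a log2 ratio to 0 psu of 0.68.

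Several of the genes past 2-fold encode inhibitors. SOCS3, which cytokines and growth hormone induce and which blocks signalling by their receptors and by the insulin receptor, had FPKM of 10.6 in freshwater, 10.18 at 5 psu and 24.02 at 15 psu (c115453_g1). It was level at 0 and 5 psu and higher at 15 psu, with log2 ratios of 1.17 to 0 psu and 1.23 to 5 psu. Upward changes of at least the first size were found in 7.8% of matched unigenes of a like level. Its other unigene, c116846_g1, had 1.83, 2.63 and 4.71 and was highest at 15 psu as well, with a ratio to 0 psu of 1.32.

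TRIB3, a pseudokinase that binds AKT, had FPKM of 2.6 in freshwater, 4.46 at 5 psu and 9.26 at 15 psu (c115357_g3), and its log2 ratio of 15 psu over 0 psu was 1.79. It was higher at each step of salinity. Against 0 psu, 22.4% of matched unigenes of a like level rose by at least as much at 5 psu and 11.2% at 15 psu. TRIB2, of the same family, had 3.43, 5.83 and 2.81 (c114551_g1) and was highest at 5 psu, with a ratio of 15 psu over 5 psu of -1.03.

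PAPPA, the protease that cleaves IGFBP4 and frees its IGF, had FPKM of 1.56 in freshwater, 0.42 at 5 psu and 1.88 at 15 psu (c118906_g3). This unigene was lowest at 5 psu, where its log2 ratio to 0 psu was -1.67, but the other PAPPA unigenes of its component did not share the pattern, with 0.66, 0.74 and 1.29 in c118906_g2 and 0.51, 0.42 and 0.13 in c118906_g4. With a pseudocount of 1, 0 unigenes of the list were 2-fold lower at 5 psu or at 15 psu than at 0 psu. The partner of FGF21 at its receptors, KLB, had 3.46, 3.54 and 1.72 (c105654_g1), and the receptor FGFR4 had 2.19, 2.71 and 0.7 (c36320_g1). Like FGF21 they were lowest at 15 psu. The more abundant receptors FGFR3 (16.35, 15.57 and 19.1) and FGFR2 (5.61, 5.84 and 5.92) were instead highest there. FGFR1 was mixed over its unigenes. The ratio of 15 psu over 5 psu was -1.81 for FGFR4 and stood at the 2-fold limit for KLB. SGK1, a kinase related to AKT that salt and glucocorticoids induce in mammals, was named after its values were seen. It had 9.5 in freshwater, 15.69 at 5 psu and 16.63 at 15 psu (c88132_g2), with log2 ratios to 0 psu of 0.72 and 0.80. Both were short of 2-fold, and 9.56% and 9.78% of matched unigenes of a like level rose by at least as much. Its other unigene, c88132_g3, had 6.94, 8.39 and 9.91, with smaller ratios of 0.27 and 0.51. STAT5B, which carries the growth hormone signal to the IGF1 gene, was the 1 gene of the list whose unigene was at 0 in all 3 libraries (c141239_g1). Only this unigene was found under the name. Whether the transcript was absent or its reads were assigned to other unigenes was not tested.

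**Figure D5:**
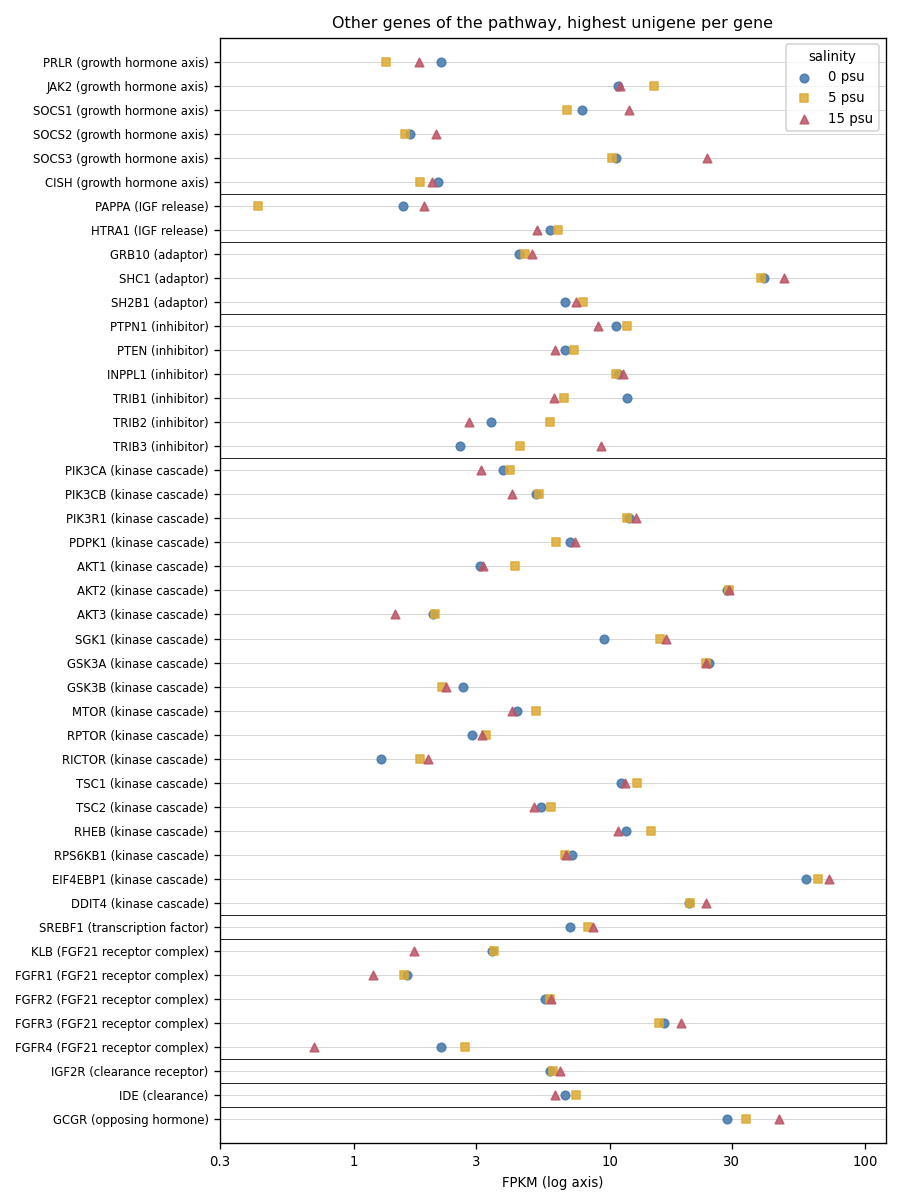
FPKM (log axis) of the 45 pathway genes above 0, with the unigene of highest mean FPKM for each gene, circles for 0 psu, squares for 5 psu and triangles for 15 psu, grouped by role. Most rows show points close together, while SOCS3 and TRIB3 have the 15 psu point to the right, PAPPA has the 5 psu point to the left and FGFR4 has the 15 psu point to the left.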

How the data were processed

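RNA was extracted with TRIzol from livers, 3 mixed per library, and sequenced on Illumina instruments. The authors trimmed the reads, assembled them with Trinity, mapped them with Bowtie and estimated FPKM with RSEM. The deposited table gives FPKM to 2 decimals for each unigene with its NR, Swissprot, KEGG and Pfam annotation. The labels write the salinities as percentages in 1 field and as psu in another, and psu were used. Another 20 lines, which held no values, were not used here. The depth behind a value is unknown, so no interval or detection limit was computed.

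Members were found by the words of their NR description and species. The members and lists were chosen with earlier results of these data known. Log2 ratios of FPKM + 0.1 were taken in Python 3.11.15 (pandas 2.3.3, numpy 2.4.6), with matplotlib 3.10.9 for the plots. Unigenes entered the counts when either library reached FPKM of 1. Shares of matched unigenes with a change at least as large were taken among unigenes of FPKM 10 or more, or 1 to 10, in the higher library of a comparison. Unigenes listed at 0 in the lower library were counted in these shares. With 1 library per salinity no test was made. Members with FPKM of at least 1 could be named. From the pathway list the 8 unigenes of highest mean FPKM and those past 2-fold were named, 1 unigene per gene. SGK1, STAT5B, FGFR1, FGFR2 and further unigenes of named genes were given beyond this rule. As alternatives, the pseudocount was set to 1 or 0.01, the filter was dropped or set to 5, the libraries were rescaled to a median ratio of 1 or to beta-actin, and the highest or the summed unigene was taken per gene. Unigenes above 0 in both libraries, unigenes with a Swissprot match and all alternatives for the pathway list were added after the data were seen. The counting step was tested on simulated data with 200 unigenes changed 8-fold. Of 25 gene symbols, 24 matched the RefSeq table, which was used for gene order.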

Additional observations from a re-analysis of the deposited data

Results flagged for a closer look

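A unigene outside the rule, whose best match was forkhead box protein O4 of an eagle, reached FPKM of 15.24 at 5 psu, against 0 in the freshwater and 15 psu libraries (c63493_g1). It drew attention because a signal above the freshwater control appeared in a row that no comparison used. Its Swissprot match names a zebrafish FOXO1, and the name is uncertain.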

How the results depend on the processing

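No paired analysis was possible because each salinity had 1 library. The number of members past 2-fold for 5 psu over 0 psu was 5, and it was 2 with FPKM of at least 5 and 1 among unigenes above 0 in both libraries. For 15 psu over 0 psu it was 9, and it was 5 with a pseudocount of 1, 1 with FPKM of at least 5, 3 with the highest unigene per gene, 3 with summed unigenes and 4 above 0 in both libraries. For 15 psu over 5 psu it was 12, and 4, 6, 7 and 5 with FPKM of at least 5, the highest unigene, summed unigenes and unigenes above 0. The median of the members for 15 psu over 0 psu, -0.17, was -0.065 without a filter and with FPKM of at least 5, and -0.39 relative to beta-actin. For 15 psu over 5 psu it was -0.36 relative to beta-actin. The pathway list had 6, 6 and 9 unigenes past 2-fold in the 3 comparisons, and 2, 3 and 5 with a pseudocount of 1, 1, 2 and 4 with FPKM of at least 5, and 1 and 3 in the comparisons with 0 psu with the highest unigene per gene. FOXO6 for 15 psu over 5 psu was -1.47 when its unigenes were summed, because c67685_g1 was seen at 5 psu alone. Of 94 log2 ratios of named unigenes, rescaling carried 1 across 2-fold and turned the sign of 9, beta-actin 5 and 4, a pseudocount of 1 carried 7 across and a pseudocount of 0.01 carried 1. Relative to beta-actin, 61 of the 94 moved by more than 0.1. Beta-actin was itself higher at 15 psu, so this scaling lowered the ratios of 15 psu over both other libraries. Summing the unigenes of a gene, which concerns 48 ratios, carried 9 across and turned the sign of 8. Those whose sign turned under a scaling were small, among them IGFBP3, INSR at 5 psu, GHR c115108_g5 at 5 psu and FOXO1 c119806_g6. The fragment count behind FPKM near 1 is unknown.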
